A study of Mus musculus with 6 samples.

Results

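The genes described here encode Wnt ligands and R-spondins, the proteins that secrete Wnt, their receptors, their secreted inhibitors, the feedback genes of the pathway and its intracellular transducers. They were measured in crypts of the mouse intestine, the pockets of epithelium from which the gut surface is renewed. Genes were taken by name: all symbols of the numbered Wnt, Fzd, Sfrp, Dkk and Rspo families, together with Lrp5, Lrp6, Lgr4, Lgr6, Axin1, Axin2, Nkd1, Nkd2, Notum, Rnf43, Znrf3, Apc, Ctnnb1, Tcf7, Tcf7l1, Tcf7l2, Lef1, Porcn, Wls and Wif1. The rule uses names alone, but the names were chosen with earlier results of these data known. Of the 19938 genes with a probe set of their own on the array, 61 met the rule: 23 ligands, 2 genes of ligand secretion, 14 receptors, 9 secreted inhibitors, 6 feedback genes, 6 transducers and Fzd10os. Fzd10os is an opposite-strand long non-coding RNA that matches the Fzd name pattern, is no receptor and was kept apart. Tcf7 was not analysed here.

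The groups were 3 YAP Tg mice and 3 control mice, with 1 array for each mouse. By the series title, YAP Tg mice carry YAP-S127A, a form of the coactivator YAP that lacks a serine used by the Hippo kinases to restrain it, driven through Villin-rtTA and therefore by a promoter of the intestinal epithelium. The mice received doxycycline for 2 days, and crypts were then released with EDTA and used without culture. The design text speaks of the mice as a whole and does not say separately whether the controls received doxycycline. Nor do the labels say which alleles the controls carry, or give strain, age or the segment of intestine. Titles name the controls as separate mice and only number the YAP Tg samples, which are called mice here, and p-values measure only the spread between these samples.

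Wnt proteins are lipid-modified by Porcn, carried to the cell surface by Wls and bound there by Frizzled receptors together with the co-receptors Lrp5 and Lrp6, after which beta-catenin escapes destruction and acts with TCF/LEF factors in the nucleus. In the crypt this signal maintains the stem cells. R-spondins amplify it by binding Lgr4, Lgr5 and Lgr6 and drawing away Rnf43 and Znrf3, membrane ubiquitin ligases that otherwise remove Frizzled from the cell surface.

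Values are log2 signals, so that a difference of 1 is a change of 2-fold, and every change is YAP Tg minus control. Differences were tested with limma across all 19938 genes, and "rose" and "fell" are used of genes with a Benjamini-Hochberg adjusted p below 0.05. Different probe sets bind differently, so levels are compared between mice and never between genes. A level of little or no expression was read from 1027 olfactory receptor genes, which are expressed in the nose. Their 95th percentile was 5.93, 5.76 and 6.05 on YAP Tg arrays 1, 2 and 3 and 5.76, 5.78 and 5.83 on control arrays 1, 2 and 3, and is called the silent-gene level below. Of the 61 genes, 41 lay above it on all 6 arrays, 10 on some and 10 on none.

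Facts of the whole series bear on these genes. YAP Tg arrays correlated with each other at 0.978 to 0.989 across genes and control arrays at 0.996 to 0.997. YAP Tg mouse 2 differed from the other YAP Tg mice, so counts are also given without it. It was singled out from these same arrays, so calls gained by leaving it out are no added support. Upper quartiles of gene signals were 8.45, 8.66 and 8.49 on YAP Tg arrays 1, 2 and 3, and 8.60 to 8.69 on control arrays. Lower quartiles were 5.52, 5.43 and 5.57, against 5.41 to 5.47. In both, YAP Tg array 2 lay within the control range and arrays 1 and 3 outside it. The part of this in the results was not tested. All 8 markers of crypt epithelium were above the silent-gene level on every array. Of them Krt18, Cdh1 and Krt8 rose and the intestinal transcription factor Cdx1 fell. Over all genes tested, 7.5% rose and 6.7% fell, beside which this and the following marker counts stand. Of 8 markers of Lgr5 stem cells 7 fell, and their summed signal was 10.11 to 11.28 in YAP Tg and 13.36 to 13.42 in control crypts on the log2 scale. Of 9 Paneth cell markers 4 fell (summed signal 14.92 to 15.13 in YAP Tg and 15.03 to 15.53 in control crypts), and 10 of 11 T cell markers, intraepithelial lymphocytes included, rose (14.57 to 14.88 in YAP Tg and 13.22 to 13.49 in control crypts). Of 9 fibroblast markers 1, Thy1, rose and the other 8 did not pass the test (summed signal 9.84 to 10.19 in YAP Tg and 9.57 to 10.21 in control crypts). Of 6 macrophage markers 2 rose and 1 fell. None of 6 smooth muscle, 5 B cell or 5 neuron and glia markers passed limma's test. At an unadjusted p below 0.05 a higher signal was found for 1 marker of each and a lower one for 1 B cell marker. Of all 19938 genes, 2730 were higher and 3224 lower at that threshold. The part of these cell types in the results below was not tested.

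In YAP Tg crypts 3 of the 61 genes rose and 9 fell. The Wnt carrier Wls, the Frizzled receptor Fzd7 and the transcription factor Tcf7l2 rose. The receptors Fzd4, Fzd5, Lrp6 and Lgr4, the secreted inhibitor Sfrp5, the feedback genes Axin2, Rnf43 and Znrf3, and Porcn fell. No ligand passed the test. In bulk RNA, fewer cells of a type and less RNA per cell cannot be told apart. The 12 genes are 19.7% of the 61, against 14.2% of all genes tested. Among genes above the silent-gene level on every array the shares were 24.4% of 41 and 20.3% of all such genes, so the set as a whole was called at a share near the background. By direction, 4.92% of the 61 rose, against 7.5% of all genes, and 14.8% fell, against 6.7%. Of the 5752 genes above the silent-gene level on no array 0.782% were called, which lowers the shares of all genes. Shares by direction among genes above that level were not computed, here or for the classes and lists below. The groups did not overlap for 18 of the 61 genes, or 29.5%, against 33.6% of all genes. In 6 of them every YAP Tg value was above every control value, as in 16.5% of all genes, and in 12 below, as in 17% of all genes. The median log2 change was 0.06 over the 61 and 0.03 over all genes.

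These calls depended on single mice to different degrees. Fzd4, Tcf7l2 and Wls passed the test with any 1 of the 6 mice left out. The other 9 lost the call without 1 or more mice. The numbers that rose and fell were 3 and 4 without YAP Tg mouse 1, 11 and 10 without YAP Tg mouse 2, 2 and 2 without YAP Tg mouse 3, and 2 and 1, 2 and 2, and 2 and 1 without control mouse 1, 2 and 3. Leaving out YAP Tg mouse 2, 14.1% of all genes rose and 19.5% fell, and of the 61 genes 18% rose and 16.4% fell.

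**Figure D1:**
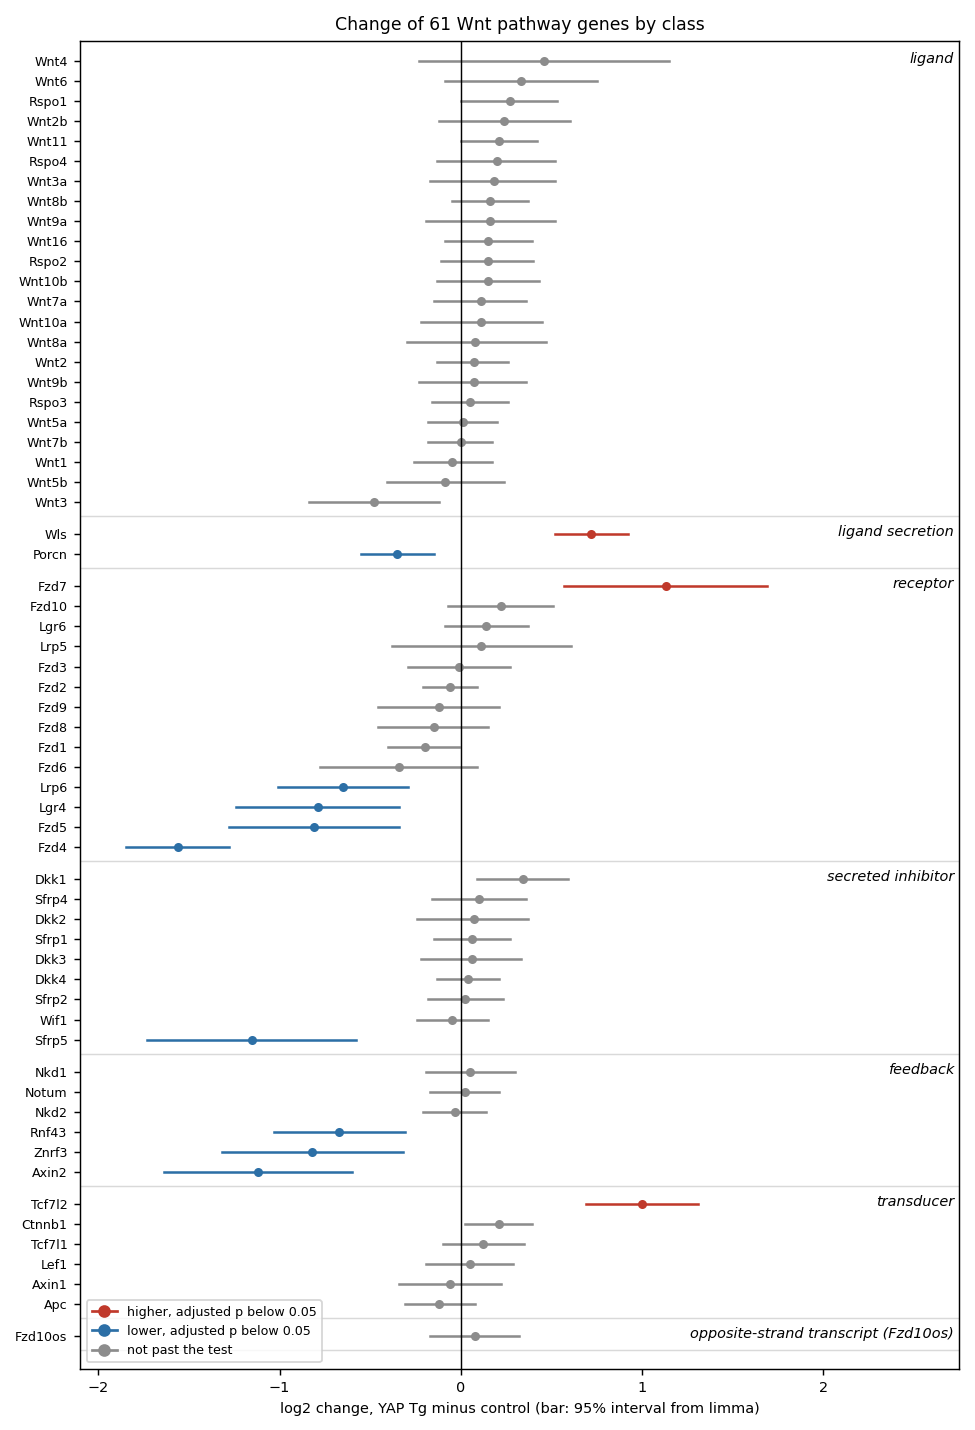
Log2 change (YAP Tg minus control, horizontal axis) of each of the 61 genes, grouped by class down the vertical axis. Points are limma estimates and bars their 95% intervals from 3 YAP Tg and 3 control mice; red marks the 3 genes that rose, blue the 9 that fell and grey the others.

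The ligands came first in the pathway's order. None of the 19 Wnt and 4 R-spondin genes passed limma's test in either direction, against 14.2% of all genes that did. At an unadjusted p below 0.05, 2 were higher and 1 was lower, against 2730 and 3224 of all 19938 genes. Log2 changes ran from -0.48 to 0.46 with standard errors of 0.07 to 0.28, and 19 of the 23 were above 0, as were 56.4% of all genes and 70.0% of the olfactory receptor genes. The median change of the ligands was 0.15, and that of the olfactory receptor genes 0.05. Of the 23, 14 lay above the silent-gene level on all 6 arrays and 5 on none, against 12487 and 5752 of all 19938 genes.

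Wnt3, the ligand that Paneth cells supply to their stem cell neighbours, had the largest negative difference. Its signal was 6.03, 5.85 and 6.34 in YAP Tg mice 1, 2 and 3 and 6.65, 6.37 and 6.64 in the controls. All YAP Tg values lay below all control values. The log2 difference was -0.48 (± 0.15 SE, 95% interval -0.84 to -0.12, limma adjusted p = 0.0887), short of the threshold, and the highest YAP Tg and lowest control value were close. Without YAP Tg mouse 3, or after quantile normalization or median centring of the arrays, Wnt3 passed it.

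Wnt4 had the largest positive difference and the widest spread. It stood at 7.59, 6.61 and 7.68 in YAP Tg mice 1, 2 and 3, against 6.84, 6.72 and 6.93 in the controls. Mouse 2 lay below every control and mice 1 and 3 above every one. The log2 difference was 0.46 (± 0.28 SE, 95% interval -0.23 to 1.15, limma adjusted p = 0.324), and 0.80 without YAP Tg mouse 2 (limma adjusted p = 0.00274). Leaving out the mouse that lay on the other side of the controls narrows the spread by construction. Wnt4 has 2 probe sets, and the other one, at 7.22, 6.70 and 6.97 in YAP Tg and 6.57, 6.59 and 6.70 in control mice, had mouse 2 level with the highest control.

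Wnt6 followed the same order of mice, at 6.73, 6.22 and 6.85 in YAP Tg mice 1, 2 and 3 and 6.33, 6.15 and 6.33 in the controls. YAP Tg mouse 2 lay among the controls and mice 1 and 3 above them. Its log2 difference was 0.33 (limma adjusted p = 0.251), and 0.52 without YAP Tg mouse 2 (limma adjusted p = 0.00938). Wnt10b, Wnt11 and Rspo1 also passed the test without that mouse, with log2 changes of 0.26, 0.28 and 0.36. Without it 5 of the 23 ligands, or 21.7%, were called higher and 0 lower, against 14.1% and 19.5% of all genes. In that setting 41 of the 1027 olfactory receptor genes, or 3.99%, were called higher and 2 lower, and their median change was 0.08.

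Of the R-spondins, made mainly by stromal cells of the gut wall, Rspo1 alone was above the silent-gene level on all 6 arrays. Rspo1 had 6.39, 6.20 and 6.59 in YAP Tg mice and 6.09, 6.11 and 6.18 in controls, with every YAP Tg value above every control value and a log2 difference of 0.27 (95% interval 0.00 to 0.53, limma adjusted p = 0.165). Rspo2 was 5.10 ± 0.14 in YAP Tg and 4.96 ± 0.12 in control crypts (SD, n = 3 each), below the silent-gene level on all arrays. Rspo3 (5.19 ± 0.12 in YAP Tg and 5.14 ± 0.06 in control crypts), the R-spondin of stroma next to the crypt base, also lay below it throughout. Rspo4 was above it on 2 YAP Tg arrays only, and differed by 0.20 (limma adjusted p = 0.379).

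The remaining Wnt genes gave overlapping groups. Wnt5a, a ligand of the beta-catenin-independent branch made by mesenchymal cells, stood at 5.32 on every YAP Tg array and 5.19 to 5.40 on control arrays, below the silent-gene level. Wnt2b, another stromal ligand, stood at 6.20, 5.73 and 6.06 in YAP Tg and 5.72, 5.61 and 5.94 in control crypts. It differed by 0.24 (limma adjusted p = 0.324). Wnt9b, an epithelial ligand, had 6.75, 6.71 and 7.09 in YAP Tg and 6.84, 6.68 and 6.83 in control crypts, with groups that overlapped. Among Wnt1, Wnt2, Wnt3a, Wnt5b, Wnt7a, Wnt7b, Wnt8a, Wnt8b, Wnt9a, Wnt10a and Wnt16, log2 differences lay between -0.09 and 0.18. Of these Wnt7a and Wnt8b were below the silent-gene level on every array, and Wnt7b showed a difference of 0.00 (95% interval -0.18 to 0.17).

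**Figure D2:**
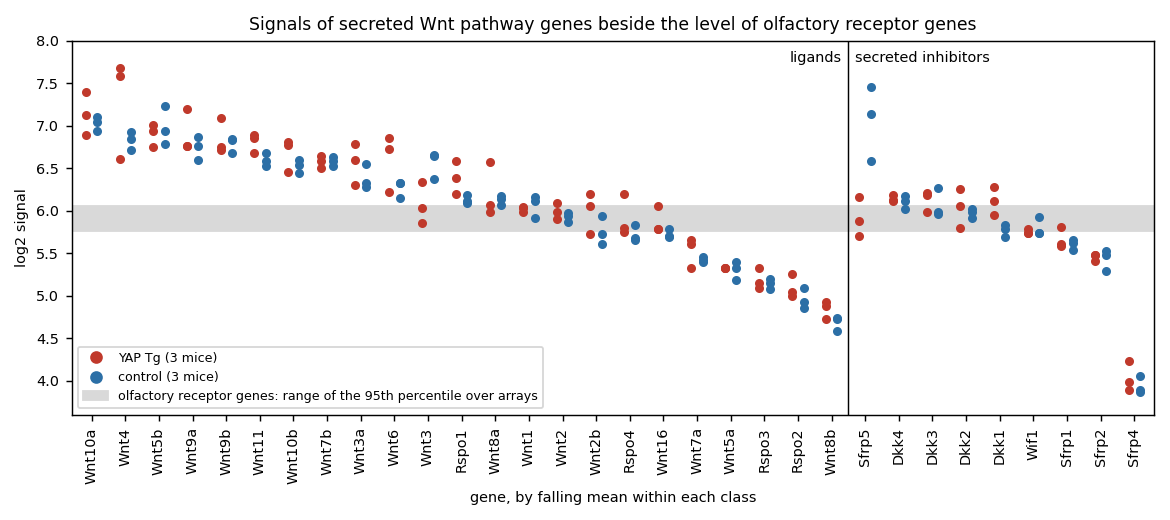
Log2 signal (vertical axis) of the 23 ligands and 9 secreted inhibitors on each array, YAP Tg to the left of control for each gene, with the grey band spanning the silent-gene level over the 6 arrays (5.76 to 6.05). Most points lie in or near the band, and Sfrp5 is the gene whose control values stand well above it and whose YAP Tg values do not.

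Both genes of ligand secretion passed the test, in opposite directions. Wls, the carrier that brings Wnt to the cell surface, had signals of 9.08, 9.26 and 9.11 in YAP Tg mice and 8.47, 8.47 and 8.34 in controls. The groups were clearly apart. The log2 change was 0.72 (± 0.08 SE, limma adjusted p = 0.00399), or 1.65-fold, and it passed with any mouse left out (limma adjusted p up to 0.0274). Porcn, the acyltransferase that attaches the lipid Wnt needs for secretion and receptor binding, had 6.63, 6.41 and 6.62 in YAP Tg mice and 6.92, 6.93 and 6.87 in controls. Its log2 change of -0.35 (± 0.08 SE, limma adjusted p = 0.042) was the smallest of the 12. The call of Porcn was lost without YAP Tg mouse 1 or 3 or any 1 control mouse (limma adjusted p 0.0609 to 0.153).

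Of the 14 receptors and co-receptors, 1 rose and 4 fell, against 7.5% and 6.7% of all genes. The median log2 change was -0.14 over the 14 and 0.03 over all genes, and 10 of the 14 had a negative difference. Fzd4 changed most. This Frizzled is the receptor of Norrin in blood vessels of the retina and also binds Wnt. Its signal was 5.46, 5.76 and 5.60 in YAP Tg mice and 7.32, 7.19 and 7.0 in control mice. Every control array was above the silent-gene level and every YAP Tg array below it. The fitted log2 change was -1.56 (± 0.12 SE, limma adjusted p = 0.00106). Because the YAP Tg values carry only a bound, Fzd4 was at least 2.39-fold lower in YAP Tg crypts, with the silent-gene level of each array taken as the floor. With any mouse left out the adjusted p stayed at or below 0.0114. Of 5 endothelial markers none passed limma's test in either direction, 1 had an unadjusted p below 0.05, and their summed signal was 8.22 to 8.32 in YAP Tg and 8.13 to 8.22 in control crypts.

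Fzd7, the Frizzled known to carry the Wnt signal in Lgr5 stem cells, was the receptor that rose. It stood at 8.55, 9.32 and 8.55 in YAP Tg mice 1, 2 and 3, against 7.76, 7.81 and 7.46 in the controls. Mouse 2 was the highest of all, and the groups did not overlap. The log2 change was 1.13 (± 0.23 SE, limma adjusted p = 0.0254), or 2.19-fold. Without YAP Tg mouse 3 or any 1 control mouse it did not pass (limma adjusted p 0.0541 to 0.11). It moved opposite to the stem cell markers listed above.

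Fzd5, which Paneth cells need to mature, had 8.23, 8.90 and 8.71 in YAP Tg mice and 9.61, 9.46 and 9.20 in controls. The groups did not overlap, and mouse 2 was the YAP Tg mouse nearest the controls. Its log2 change was -0.81 (± 0.19 SE, limma adjusted p = 0.0426), and the call was lost without YAP Tg mouse 1 or 3 or any 1 control (limma adjusted p 0.0626 to 0.162). Of the 9 Paneth cell markers, 4 fell, with log2 changes of -0.65 to -1.30, and 5 did not pass the test, 2 of them with a difference above 0. At an unadjusted p below 0.05, 7 of the 9 were lower and 0 higher. In 6 every YAP Tg value was below every control value, as in 17% of all genes. The marker with the largest change was the phospholipase Pla2g2a (8.21 ± 0.29 in YAP Tg and 9.51 ± 0.21 in control crypts, SD, n = 3 each).

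The co-receptors differed from each other. Lrp6 had 7.95, 8.41 and 8.17 in YAP Tg mice and 9.02, 8.82 and 8.64 in controls, groups that did not overlap, with a log2 change of -0.65 (± 0.15 SE, limma adjusted p = 0.037). That call was lost without YAP Tg mouse 1 or 3 or any 1 control (limma adjusted p 0.0717 to 0.137). Lrp5 had 8.77, 9.52 and 9.45 in YAP Tg mice, spread around the control values of 9.16, 9.17 and 9.06, and a log2 difference of 0.11 (95% interval -0.38 to 0.61, limma adjusted p = 0.738). Whether the 2 changes differ was not tested.

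Lgr4, the R-spondin receptor present in stem and transit-amplifying cells, had 9.61, 10.37 and 10.07 in YAP Tg mice 1, 2 and 3 and 10.83, 10.81 and 10.77 in controls. The control values were nearly level, and mouse 2 was nearest to them. The log2 change was -0.79 (± 0.19 SE, limma adjusted p = 0.04), or 1.73-fold, and it was lost without YAP Tg mouse 3 or any 1 control (limma adjusted p 0.112 to 0.146). Lgr6 did not pass the test (6.46 ± 0.13 in YAP Tg and 6.32 ± 0.08 in control crypts, SD, n = 3 each; limma adjusted p = 0.375). Lgr5, the stem cell member of the same receptor family, was 6.47 ± 0.45 in YAP Tg and 8.23 ± 0.42 in control crypts (SD, n = 3 each).

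The other Frizzled genes did not pass the test. Fzd1 was 6.84, 6.91 and 7.05 in YAP Tg and 7.14, 7.10 and 7.18 in control crypts, below in every mouse, with a log2 difference of -0.20 (limma adjusted p = 0.151). Fzd6, a Frizzled of the planar polarity branch, had 6.50, 7.07 and 6.64 in YAP Tg and 7.30, 6.88 and 7.05 in control crypts. It differed by -0.34 (limma adjusted p = 0.255). When YAP Tg mouse 2 was left out, Fzd6 passed the test with a log2 change of -0.51 and Fzd10 with one of 0.34. Fzd2, Fzd3, Fzd8, Fzd9 and Fzd10 differed by -0.15 to 0.22, and Fzd3 was below the silent-gene level on all arrays. Fzd10os, the transcript opposite Fzd10, was 5.95 ± 0.15 in YAP Tg and 5.88 ± 0.09 in control crypts (SD, n = 3 each).

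**Figure D3:**
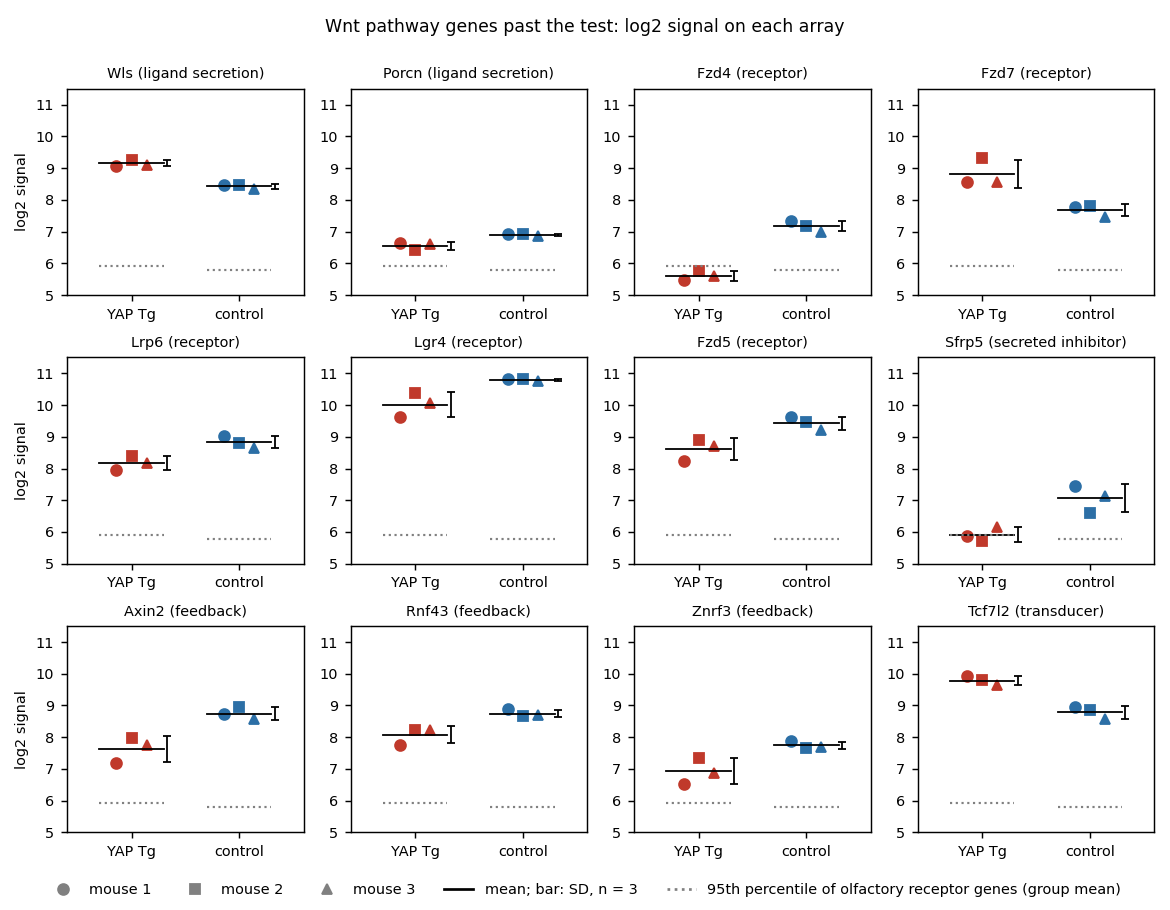
Log2 signal (vertical axis) of the 12 genes past the test, 1 panel per gene, with YAP Tg left of control, a symbol for each mouse, the group mean as a line and the SD as a bar (n = 3). The dotted lines mark the group's mean silent-gene level: Fzd4 lies below it in YAP Tg mice, and Fzd7 is highest in YAP Tg mouse 2.

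Secreted inhibitors bind Wnt, as Sfrp proteins and Wif1 do, or the Lrp co-receptors, as Dkk1 does. Of the 9 genes of this class, Sfrp5 fell and none rose by limma's test, or 11.1% and 0, against 6.7% and 7.5% of all genes. At an unadjusted p below 0.05, 1 was higher, against 2730 of all 19938 genes. Only 3 of the 9 genes were above the silent-gene level on all 6 arrays. Sfrp5 had 5.88, 5.70 and 6.16 in YAP Tg mice and 7.46, 6.59 and 7.14 in controls. All controls were above the silent-gene level, and of the YAP Tg arrays 1 was. The log2 change was -1.15 (± 0.24 SE, limma adjusted p = 0.0262), or 2.22-fold, and the call was lost without YAP Tg mouse 1 or 3 or control mouse 1 or 3 (limma adjusted p 0.0581 to 0.112).

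Dkk1, an inhibitor that blocks Lrp6, was 6.11, 5.95 and 6.28 in YAP Tg and 5.83, 5.69 and 5.79 in control crypts. The YAP Tg values were all above the controls, and above the silent-gene level, as was 1 control. The log2 difference of 0.34 (95% interval 0.09 to 0.59) did not pass (limma adjusted p = 0.0832), and it did without YAP Tg mouse 2 (0.42, limma adjusted p = 0.0168). Dkk2, Dkk3, Dkk4, Sfrp1, Sfrp2, Sfrp4 and Wif1 differed by -0.05 to 0.10, with limma adjusted p from 0.583 to 0.886. Sfrp1, Sfrp2 and Sfrp4 were below the silent-gene level on all 6 arrays.

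Of the 6 feedback genes, 3 fell and none rose, against 6.7% and 7.5% of all genes; no other feedback gene had an unadjusted p below 0.05. Axin2, the scaffold of the destruction complex that beta-catenin itself induces, had 7.18, 7.96 and 7.74 in YAP Tg mice 1, 2 and 3, against 8.72, 8.95 and 8.56 in controls. The groups did not overlap, with mouse 1 lowest. The log2 change was -1.12 (± 0.21 SE, limma adjusted p = 0.0208), or 2.17-fold. It was lost without YAP Tg mouse 3 or any 1 control (limma adjusted p 0.0656 to 0.0933).

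The ligases that clear Frizzled from the membrane fell too. Rnf43 was 7.76, 8.23 and 8.23 in YAP Tg mice and 8.88, 8.66 and 8.70 in controls, with a log2 change of -0.67 (± 0.15 SE, limma adjusted p = 0.0326). Znrf3 was 6.54, 7.35 and 6.88 in YAP Tg mice and 7.87, 7.66 and 7.69 in controls, with a log2 change of -0.82 (± 0.20 SE, limma adjusted p = 0.0475). In both genes YAP Tg mouse 1 was lowest and the groups did not overlap. Neither passed without YAP Tg mouse 3 or any 1 control, and Znrf3 did not without YAP Tg mouse 1 or after median centring either. Over these settings of leaving out a mouse limma adjusted p was 0.0639 to 0.135 for Rnf43 and 0.0822 to 0.175 for Znrf3.

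The other feedback genes gave differences near 0. Nkd1, an inhibitor of Dishevelled and a Wnt target in the gut, was 6.86, 6.68 and 7.0 in YAP Tg and 6.86, 6.73 and 6.79 in control crypts (log2 difference 0.05, 95% interval -0.19 to 0.30). Notum, the enzyme that removes the lipid from Wnt, was 5.97, 5.96 and 6.15 in YAP Tg and between 5.98 and 6.02 in control crypts (0.02, 95% interval -0.17 to 0.21). Its signal was above the silent-gene level on each array. Nkd2 lay below that level on all arrays.

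Promoter windows of the feedback genes that fell and had one in the table are shown with those of Lgr4 and of the Frizzled genes with the largest change in either direction; the last 3 were chosen after their values were seen. The sequences are RefSeq's for build GRCm38.p6, from 250 bases before to 50 after the start, 5′ to 3′ on the gene's strand, which is the plus strand in each. Axin2 is at chr11:108920099-108920398, Rnf43 (the first of 2 starts) at chr11:87662837-87663136, Lgr4 at chr2:109917397-109917696, Fzd4 at chr7:89404116-89404415 and Fzd7 at chr1:59481897-59482196. Capitals mark matches to the TEAD motif GGAATG or the TCF/LEF motifs CTTTGAT and CTTTGAA, searched on both strands. The TCF/LEF motifs differ in their last base and cannot match at the same place, and a TEAD match may share bases with a TCF/LEF match but does not in these windows.
Axin2: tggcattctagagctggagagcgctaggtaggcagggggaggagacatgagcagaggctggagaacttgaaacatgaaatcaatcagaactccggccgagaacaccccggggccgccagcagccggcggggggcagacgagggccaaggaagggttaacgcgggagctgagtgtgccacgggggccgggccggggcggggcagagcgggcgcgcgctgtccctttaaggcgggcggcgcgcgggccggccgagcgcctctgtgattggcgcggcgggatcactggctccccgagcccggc
Rnf43: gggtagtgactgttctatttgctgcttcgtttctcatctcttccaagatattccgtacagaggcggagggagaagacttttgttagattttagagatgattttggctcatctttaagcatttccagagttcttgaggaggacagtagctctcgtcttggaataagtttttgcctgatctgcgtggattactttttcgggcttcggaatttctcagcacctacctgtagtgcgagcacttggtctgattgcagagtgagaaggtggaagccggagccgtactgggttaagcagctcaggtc
Lgr4: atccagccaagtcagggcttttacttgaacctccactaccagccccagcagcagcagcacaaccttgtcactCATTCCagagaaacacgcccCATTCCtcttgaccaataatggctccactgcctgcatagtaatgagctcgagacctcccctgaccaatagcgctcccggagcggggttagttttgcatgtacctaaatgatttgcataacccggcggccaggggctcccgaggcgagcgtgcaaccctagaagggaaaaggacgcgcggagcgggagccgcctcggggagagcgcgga
Fzd4: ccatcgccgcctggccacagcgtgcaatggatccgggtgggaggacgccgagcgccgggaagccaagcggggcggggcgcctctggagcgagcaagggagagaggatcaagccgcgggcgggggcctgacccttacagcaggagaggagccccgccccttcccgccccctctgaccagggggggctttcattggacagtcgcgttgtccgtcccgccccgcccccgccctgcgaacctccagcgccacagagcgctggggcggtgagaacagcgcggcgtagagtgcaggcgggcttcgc
Fzd7: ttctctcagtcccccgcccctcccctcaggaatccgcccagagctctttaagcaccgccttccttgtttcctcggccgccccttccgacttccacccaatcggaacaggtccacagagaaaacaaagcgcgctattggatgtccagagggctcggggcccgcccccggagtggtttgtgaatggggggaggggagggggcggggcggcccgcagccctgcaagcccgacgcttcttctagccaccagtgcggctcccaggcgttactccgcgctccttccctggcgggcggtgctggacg
Lgr4 held 2 TEAD matches, both on the minus strand, and the other 4 windows held no match to any of the motifs. Windows were found for 39 of the 61 genes, 48 windows in all, and for 9 of the 12 genes that passed the test, 11 windows. Among these 11, 1 held the TEAD motif and 0 held a TCF/LEF motif. Over all 32851 windows of the table the shares were 14.7% and 8.65%. The Axin2 window was 70.0% G or C with 31 CpG and the Rnf43 window 46.7% with 10, against a median of 52.7% and 7 over all windows.

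Among the 6 transducers, Tcf7l2 rose and none fell by limma's test, while 7.5% of all genes rose and 6.7% fell. At an unadjusted p below 0.05, 2 were higher and 0 lower, against 2730 and 3224 of all 19938 genes. Tcf7l2, the TCF factor on which the crypts of the gut depend, was 9.92, 9.79 and 9.65 in YAP Tg mice and 8.95, 8.86 and 8.56 in controls. The groups were clearly apart, and mouse 2 lay between the other YAP Tg mice. The log2 change was 1.00 (± 0.13 SE, limma adjusted p = 0.0055), or 2.00-fold, with limma adjusted p at or below 0.0312 whichever mouse was left out. Its direction was opposite to that of Axin2.

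Ctnnb1, which encodes beta-catenin, was 12.32, 12.22 and 12.36 in YAP Tg and 12.14, 12.13 and 12.01 in control crypts. Every YAP Tg value was above every control value, by little. The log2 difference was 0.21 (95% interval 0.02 to 0.39, limma adjusted p = 0.133), and it passed without YAP Tg mouse 2 (0.25, limma adjusted p = 0.0478). The destruction complex genes did not pass the test: Apc was 8.99 ± 0.08 in YAP Tg and 9.11 ± 0.08 in control crypts (SD, n = 3 each), and Axin1 8.41 ± 0.19 and 8.47 ± 0.10. Tcf7l1, which acts mostly as a repressor, differed by 0.12 (limma adjusted p = 0.408). Lef1, a factor also found in T cells, was 5.97 ± 0.04 in YAP Tg and 5.92 ± 0.17 in control crypts and near the silent-gene level, beside the rise of 10 of 11 T cell markers.

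The order of the YAP Tg mice was not the same in all 12 genes. In 6 of the 9 genes that fell (Axin2, Znrf3, Fzd4, Fzd5, Lrp6 and Lgr4) mouse 2 alone was nearest the controls and mouse 1 farthest from them. In Wls, Porcn, Fzd7 and Sfrp5 mouse 2 was the farthest. All YAP Tg values of Fzd4, and all but 1 of Sfrp5, lay below the silent-gene level, where the order of mice is uncertain. Mouse 2 thus stood nearer the controls in some genes of the pathway and farther from them in others.

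**Figure D4:**
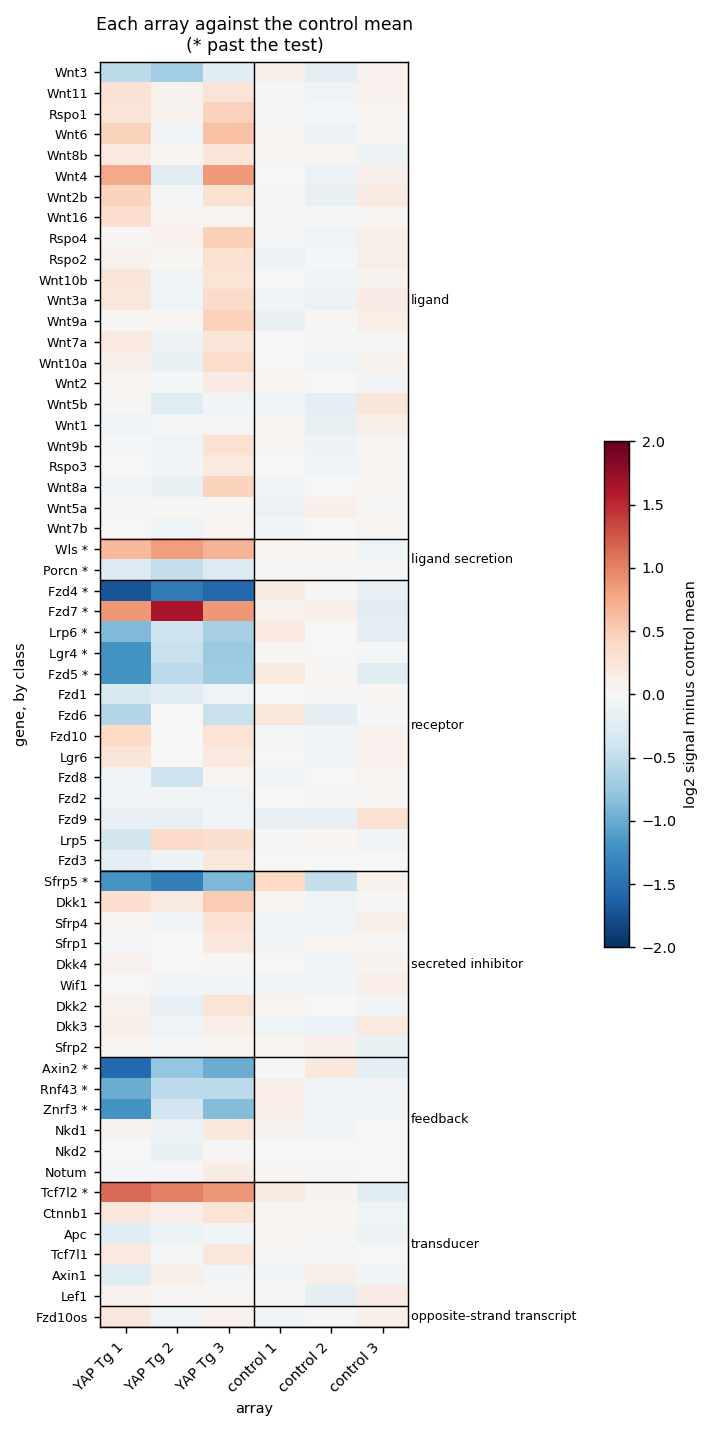
Log2 signal of each of the 61 genes (rows, by class) on each array (columns, YAP Tg left of control) minus the control mean, in colour from -2 to 2. Genes past the test carry an asterisk; YAP Tg mouse 2 is paler than mice 1 and 3 in Axin2, Znrf3 and Lgr4 and darker in Fzd7.

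Other genes of the pathway were read from lists kept apart from the 61, which were also chosen with earlier results of these data known. Of 21 Wnt and beta-catenin targets, 8 fell and 1 rose, or 38.1% and 4.76%, with a median log2 change of -0.42, against 6.7%, 7.5% and 0.03 for all genes. Beside Lgr5, the stem cell transcription factor Ascl2 (log2 change -1.83), the intestinal factor Cdx1 (-0.97), the sorting receptor Ephb3 (-0.73) and the adhesion adaptor Fermt1 (-1.50) fell. The AP-1 factor Jun rose by 1.11 on the log2 scale. Limma's adjusted p of these genes was 0.00299 to 0.0243. The 8 that fell became 6 without YAP Tg mouse 1 and 4 without YAP Tg mouse 3 or control mouse 1 or 2. They became 2 without control mouse 3 and 12 without YAP Tg mouse 2. Those 12 are 57.1% of the list, against 19.5% of all genes in that setting. Lgr5 lost its call without control mouse 3 (limma adjusted p = 0.0591). Jun passed with YAP Tg mouse 1 or 2 left out and with no other mouse left out. Stem cell markers fell beside these genes, and Lgr5, Ascl2 and Tnfrsf19 stand in both lists. Tnfrsf19, named after its values were seen as the third shared gene, did not pass the test (log2 difference -0.03, limma adjusted p = 0.812).

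In the cytoplasm, 2 of 28 genes of Dishevelled, the destruction complex and their kinases rose, and none fell by limma's test. At an unadjusted p below 0.05, 4 were higher and 0 lower, against 2730 and 3224 of all 19938 genes. Those that rose were the casein kinase Csnk1e (8.93 ± 0.08 in YAP Tg and 8.44 ± 0.14 in control crypts, SD, n = 3 each, limma adjusted p = 0.0217) and the Dishevelled-binding gene Dact2 (8.45 ± 0.22 and 7.84 ± 0.04, limma adjusted p = 0.0232). The 2 that rose became 1 without YAP Tg mouse 1 or 3 or control mouse 1, and 0 without control mouse 2 or 3. Without YAP Tg mouse 2, 3 rose and 2 fell, or 10.7% and 7.14%, against 14.1% and 19.5% of all genes. The median log2 change of the 28 was -0.03, and the 7.14% of them that rose stand against 7.5% of all genes, a share near the background.

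Of 28 genes of planar cell polarity and the beta-catenin-independent branch, 3 rose and 2 fell, or 10.7% and 7.14%, near the 7.5% and 6.7% of all genes. Vangl1, a core planar polarity membrane protein, was 7.56, 7.78 and 7.63 in YAP Tg and 6.64, 6.76 and 6.46 in control crypts. The groups were clearly apart, with a log2 change of 1.04 (± 0.11 SE, limma adjusted p = 0.00263). The calcium-dependent kinase Camk2d (0.55) and the transcription factor Nfatc1 (0.39) also rose, and Wdpcp (-0.40) and Nfatc3 (-0.64) fell. The 3 that rose became 1 without YAP Tg mouse 1 or control mouse 1 or 3, 2 without control mouse 2 and 5 without YAP Tg mouse 2. Without YAP Tg mouse 3 the count stayed at 3, and 2 of them were the same genes. The 2 that fell became 0 without YAP Tg mouse 1 or any 1 control, 1 without YAP Tg mouse 3 and 3 without YAP Tg mouse 2. In the last setting 17.9% of the list rose and 10.7% fell, against 14.1% and 19.5% of all genes.

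Of 19 beta-catenin cofactors and repressors, the repressor Hic1 rose (0.66, SE 0.10, limma adjusted p = 0.00839) and the TCF corepressor Tle1 fell (-0.71, SE 0.15, limma adjusted p = 0.0305). Each call is 5.26% of the list, against 7.5% higher and 6.7% lower of all genes. The call of Tle1 was lost without YAP Tg mouse 1 or 3 or any 1 control, when 0 of the list fell. Without YAP Tg mouse 2, 5 fell, or 26.3%, against 19.5% of all genes. Of 13 co-receptors and surface modulators, the Dkk co-receptor Kremen2 rose (0.55, limma adjusted p = 0.0352) and the Lrp6 adaptor Atp6ap2 fell (-0.59, limma adjusted p = 0.0472). Each is 7.69% of its list, again near the background. Without YAP Tg mouse 3 or any 1 control 0 of these 13 passed. Without YAP Tg mouse 1 both calls were lost and 1 other gene of the list was called higher. Without YAP Tg mouse 2 there were 2 higher and 1 lower, or 15.4% and 7.69%, against 14.1% and 19.5% of all genes. None of 10 other genes listed as inhibitors of the pathway passed limma's test or had an unadjusted p below 0.05. Of these, Igfbp4 was 7.55 ± 0.59 in YAP Tg and 8.08 ± 0.06 in control crypts, and Dkkl1 6.08 ± 0.21 and 5.79 ± 0.12 (SD, n = 3 each). Without YAP Tg mouse 2, 1 of these 10 was higher and 1 lower, or 10% each, against 14.1% and 19.5% of all genes.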

How the data were processed

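Total RNA from isolated crypts of 6 mice was hybridised to Affymetrix mouse gene arrays, 1 per mouse. The authors deposited log2 signals of 35556 probe sets, and the submitters' processing notes name Affymetrix Expression Console, version 1.1. The log2 scale was read from the values (1.99 to 14.41). Background correction and normalization between arrays were not given in the sources used here. Median signals were 6.19 to 6.32, so a change common to all genes would not show. Groups came from the sample titles.

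Genes were named from the 21789 probe sets with 1 symbol in the platform annotation (1621 had several and were not used), and 21698 of them were found by Entrez identifier in RefSeq's gene table (GRCm38.p6), with 0 symbols updated. That table served for names only. The probe set with the highest mean was used for each of 19938 genes. Of the 61 genes, 17 have a value shared exactly by 2 or more arrays, 27.9% against 29.5% of all genes.

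YAP Tg and control were compared by limma's moderated test (lmFit, then eBayes, version 3.58.1, under R 4.3.3), two-sided and with no covariate. P-values were adjusted over the 19938 genes after Benjamini and Hochberg, with a threshold of 0.05, and 95% intervals came from the moderated fit. The script was tested on simulated data. It recovered 75% of 100 simulated log2 changes of 1 and 96% of 100 of 2, with 0 errors of sign. Of its calls there, 8.56% were false. Precision is limited by the 3 arrays of each group. Every one of the 61 genes could be named; of each other list, up to 6 genes past the test or up to 2 others. Members, lists, markers and motifs were chosen with earlier results of these data known. Some genes of the lists were not analysed here. Alternatives were array weights, other thresholds, signal filters, averaged probe sets, median centring or quantile normalization, a robust trended prior, a block for the replicate number, and the fit without each of the mice.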

Additional observations from a re-analysis of the deposited data

How the results depend on the processing

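The direction of the change was kept by every one of the 12 called genes under all alternatives that could test it. Fzd4 passed under each of these, and Wls and Tcf7l2 under each but the one that asked for a change of 2-fold. With any 1 mouse left out, the 61 genes gave 2 to 11 higher and 1 to 10 lower, and all genes 669 to 2802 higher and 369 to 3889 lower. By class these ranges were 0 to 5 ligands higher and 0 to 1 lower, 0 to 1 secretion genes lower, 0 to 2 receptors higher and 1 to 5 lower, 0 to 1 secreted inhibitors higher and 0 to 1 lower, 0 to 3 feedback genes lower and 1 to 2 transducers higher. The highest counts came without YAP Tg mouse 2, except that the 1 ligand lower, Wnt3, came without YAP Tg mouse 3.

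With array weights, which gave YAP Tg mouse 2 a weight of 0.25 and control mouse 1 a weight of 2.41, 2459 of all genes were higher and 3481 lower. Of the 61 genes 7 were then higher, among them 3 ligands and 1 secreted inhibitor; the cause was not tested. Quantile normalization and median centring each called 1 ligand lower (Wnt3), as did an adjusted p below 0.10, which also called 1 secreted inhibitor higher (Dkk1) and 2101 of all genes lower. Where 2-fold was also asked for, 519 of all genes were higher and 468 lower, and of the 61 genes 1 was higher (Fzd7) and 3 lower (Fzd4, Sfrp5 and Axin2), with 0 secretion genes higher, 0 lower and 0 transducers higher, 1 receptor lower and 1 feedback gene lower. The filter to genes above the median signal left out Porcn, Sfrp5 and Fzd4 by its construction, so 0 secretion genes and 0 secreted inhibitors were lower. The trended and robust prior, averaging of probe sets and the filter at the silent-gene level changed no call among those of the 61 genes they tested.

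The replicate numbers of the titles pair no mice by any label, and deviations of same-numbered arrays correlated at -0.131, 0.012 and 0.098, so the block was not used in the reported fit; 2 of 6 arrays correlated best with their own number. With the replicate block, 975 of all genes were higher and 727 lower, and of the 61 genes 3 were lower (Fzd4, Sfrp5 and Axin2), with 1 receptor, 1 feedback gene and 0 secretion genes lower. Signals at or below the silent-gene level, on all arrays in 10 of the 61 genes and on some in 10, limit what could be measured for most R-spondins, Sfrp genes and several Wnt genes.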
